A study of Mus musculus with 6 samples.

Results

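Gene expression in the transit-amplifying matrix cells of the mouse hair follicle was compared with that of its quiescent stem cells. The comparison uses 4 of the 6 Affymetrix arrays of the study: 2 of matrix cells (HF-TAC) and 2 of quiescent hair follicle stem cells (qHF-SC). All cells came from back skin of female CD-1 mice that received no treatment. The matrix cells were taken at postnatal day 28 to 30 and sorted with GFP, integrin α6 and ephrinB1. The quiescent stem cells were taken at postnatal day 52 to 60 and sorted with integrin α6 and CD34. A further 2 arrays of activated stem cells (aHF-SC; day 28 to 30; GFP, integrin α6 and CD34) entered the estimate of the spread and serve as the intermediate population. Age and sorting gate therefore differ together with cell type between matrix and quiescent stem cells and cannot be told apart from it. Only the sorts at day 28 to 30 used GFP, and the labels do not say what carries it, nor whether replicates came from separate animals. P-values then measure the spread between arrays, which may be technical. Each of 18193 genes was measured through 1 probe set, the brightest on average of those that the annotation pairs with no other gene.

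The resting hair follicle keeps its stem cells in the bulge, a niche below the sebaceous gland, where BMP signals and secreted Wnt inhibitors hold them out of cycle. At the start of growth the stem cells and the hair germ give rise to the matrix, a pool of fast-dividing cells around the dermal papilla. Matrix cells divide a limited number of times and then turn into the layers of the inner root sheath and the hair shaft, under Wnt, BMP, Notch and Hedgehog signals.

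Differences are given on the log2 scale as matrix minus quiescent, with the standard error of the fit. A gene is called where limma's two-sided test gives a Benjamini-Hochberg adjusted p under 0.05 over all 18193 genes. Of these, 4790 genes (26.3%) were called, 2445 higher (13.4%) and 2345 lower (12.9%) in matrix cells. The median difference over all genes was -0.01. Among the called genes, 446 were over 4-fold higher and 433 over 4-fold lower, and 159 were over 10-fold higher and 123 over 10-fold lower. For 11138 genes (61.2%) the matrix arrays lay wholly above or below the quiescent arrays. The count of higher genes was 1361 without qHF-SC replicate 2. That of lower genes was 1557 when qHF-SC replicate 1 was left out and 1532 in the absence of replicate 2. The stem cell replicates had a correlation of 0.992 and the matrix replicates one of 0.989 across genes, which are not independent replicates. In these pairs 202 and 454 genes differed by over 2-fold. Intensities at or below 14.6, the highest array median of 35 regulators of non-skin lineages, are called background.

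**Figure D1:**
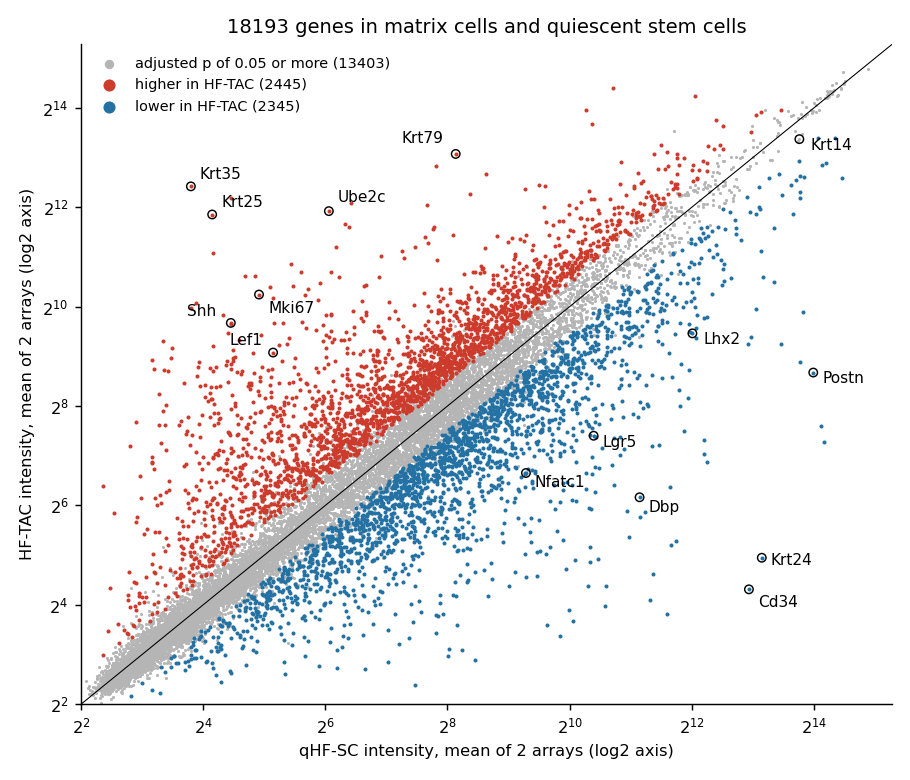
Mean intensity of each gene on the 2 qHF-SC arrays (horizontal, log2 axis) and the 2 HF-TAC arrays (vertical, log2 axis), 1 point a gene, with the line of equality. The 2445 genes called higher in HF-TAC lie above the line and the 2345 called lower lie below it, and Krt14 stays close to it.

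The markers of the gates were read first. Cd34, the antigen of the stem cell gate, had intensities of 7186 and 8557 on the quiescent arrays and 15.3 and 25.7 on the matrix arrays. Its difference was -8.63 ± 0.28 (adjusted p 1.6e-05), the largest fall of any gene named here, and it describes the sort. Itga6 encodes the integrin α6 on which all 3 sorts relied. It read 2812 and 2120.2 in quiescent stem cells and 1069.9 and 854 in matrix cells, a difference of -1.35 ± 0.21 (adjusted p 0.0031). Efnb1, which encodes ephrinB1, the antigen of the matrix gate, read 581 and 421 against 845 and 1009.6. That difference of 0.90 ± 0.20 passed the test (adjusted p 0.015), but not without qHF-SC replicate 2 or HF-TAC replicate 2. Activated cells, whose gate did not use ephrinB1, read 727 and 795 in Efnb1. The matrix did not differ from them by the test (0.28, adjusted p 0.45). Between matrix and quiescent cells the 3 markers thus differed in the direction of their gates, or, for Itga6, within a shared gate.

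Bulge genes were lower in matrix cells as a group. Of 15 bulge transcription factors, 0 were called higher and 9 lower, with a median difference of -1.21. Lhx2, a LIM-homeodomain factor of the bulge, read 3946 and 4318 in quiescent stem cells and 490.3 and 1016 in matrix cells. Sox9, needed to specify bulge stem cells, went from 1798 and 1269.6 to 515 and 467. Neither gene's arrays overlapped between the groups, which held for 61.2% of all genes. The differences were -2.55 ± 0.32 (adjusted p 0.0012) and -1.62 ± 0.23 (adjusted p 0.002). Tbx1 read 2165 and 2051 against 193 and 268, a 9.26-fold lower level (adjusted p 2.1e-04). Nfatc1, a calcineurin-regulated factor of quiescent bulge cells, read 645 and 603 against 95.9 and 105, a difference of -2.63 ± 0.23 (adjusted p 3.0e-04) that was -1.31 when all its probe sets were averaged. Nfib fell by 1.87 and Id2, a target of BMP signalling, by 2.07 on the log2 scale. Nfia, Tcf7l2 and Hopx complete the 9, with the call of Tcf7l2 lost without qHF-SC replicate 1. The remaining 6 were not called. Tcf7l1, a repressor of Wnt targets in stem cells, had a difference of -0.76 ± 0.27 (adjusted p 0.081), and Runx1, Foxc1, Foxp1, Gli2 and Zfp36l1 lay between -0.92 and -0.15. In bulk RNA a smaller share of expressing cells and less RNA per cell cannot be told apart.

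Surface and secreted products of the bulge showed the same direction in larger steps. Of 23 measured, 20 were lower and 1 higher, with a median of -3.10, an 8.59-fold lower level. Postn, which encodes the matrix protein periostin, read 16135 and 16423 on the quiescent arrays and 396 and 421 on the matrix arrays. Dkk3 and Sfrp1, secreted proteins of the Dickkopf and Wnt-binding Sfrp families, read 3066 and 3371 against 88.4 and 76.8 and 4490.1 and 3448 against 242 and 335. Each pair of groups lay far apart, with differences of -5.32 ± 0.21, -5.29 ± 0.16 and -3.79 ± 0.22. Grem1, a secreted BMP antagonist, differed by -6.45 ± 0.15 and Cck, which encodes cholecystokinin, by -6.60 ± 0.20. Lgr5, a receptor for R-spondins, read 1468 and 1233 against 130.3 and 219.6, a difference of -2.99 ± 0.25 (adjusted p 2.7e-04) or -1.73 over all its probe sets. Col17a1, the hemidesmosomal collagen XVII, read 15181 and 13917 against 1122 and 797, 15.4-fold lower. Krt15 had a smaller difference of -1.87 ± 0.25, from 22242 and 23101 to 8075 and 4744. The 1 member that went the other way was Wif1, a secreted Wnt inhibitor, at 132 and 96.8 against 335 and 374 (difference 1.64 ± 0.26, adjusted p 0.0037). Timp3 and Bmp6 were not called. Bmp6 read 56.4 and 59.3 in quiescent, 186 and 268 in activated and 33.5 and 45.4 in matrix cells, so that matrix cells differed from activated cells by -2.52 (adjusted p 7.9e-04) but from quiescent cells by -0.57 (adjusted p 0.12).

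The activated stem cells lay closer to the quiescent cells than to the matrix for most of these genes. The bulge surface and secreted list had a median difference of -0.47 for aHF-SC minus qHF-SC and -3.37 for HF-TAC minus aHF-SC, contrasts that share the aHF-SC arrays. Over all genes 6.28% were called in the first contrast and 17.5% in the second. Of the list's 23 genes, 9 were lower in activated than in quiescent cells and 18 lower in matrix than in activated cells. Lgr5 read 1465 and 1341, Tbx1 1897 and 3004 and Igfbp3 4118 and 5132 in activated cells, within or beside the quiescent range. Matrix cells differed from activated ones in these genes by -3.05, -3.39 and -4.84 (adjusted p 5.9e-04, 4.2e-04 and 1.1e-04). Cck was different: activated cells read 11.8 and 11.2, and the matrix did not differ from them by the test (0.46, adjusted p 0.20).

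**Figure D2:**
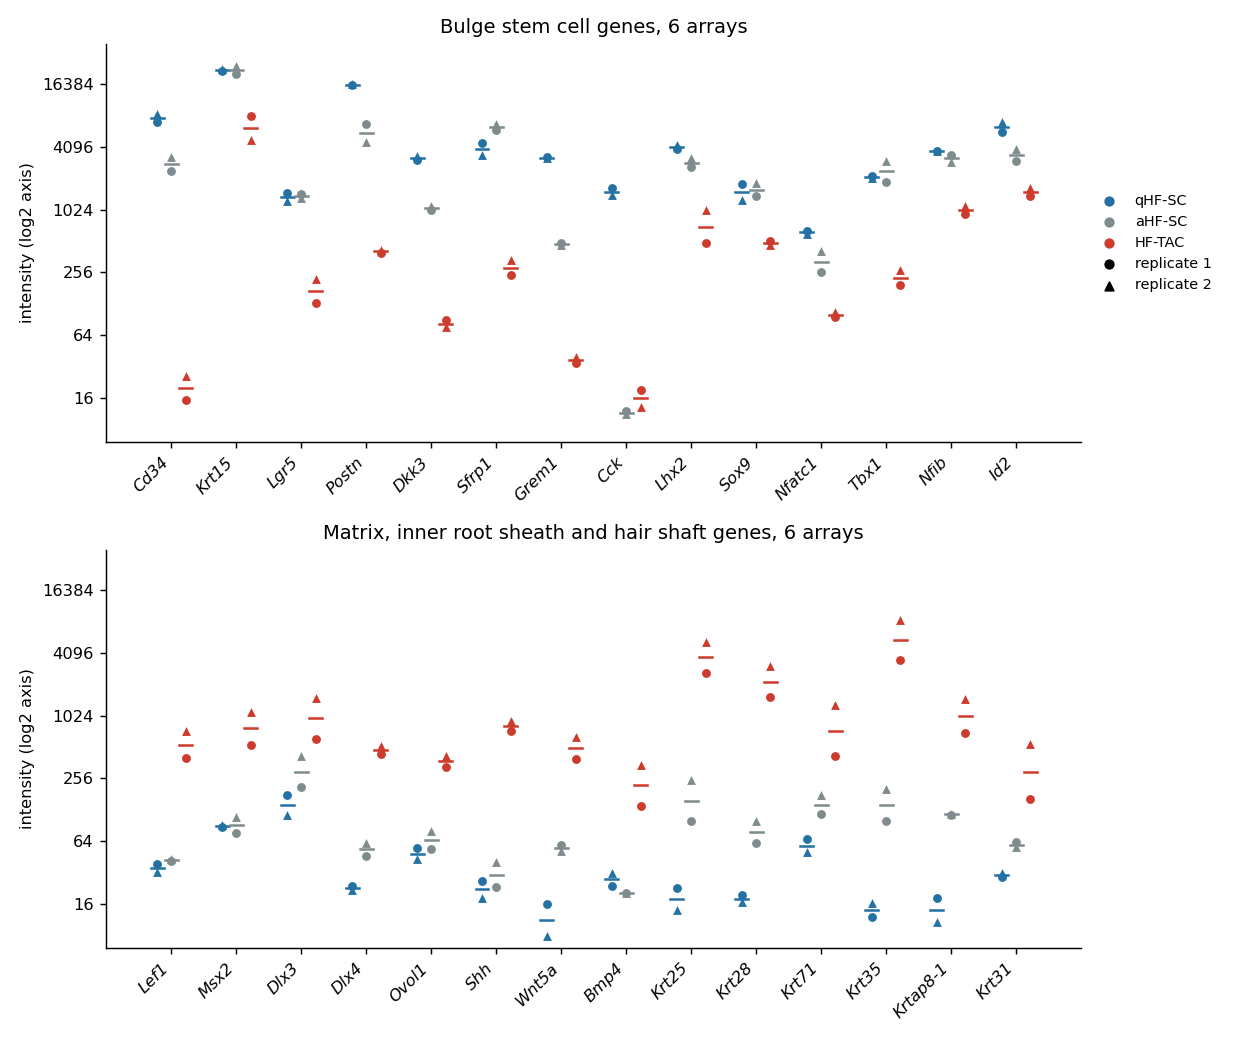
Intensity (log2 axis) of 14 bulge genes (top) and 14 matrix and hair genes (bottom) on each of the 6 arrays, with circles and triangles for replicates 1 and 2 and a bar at the mean of a group. HF-TAC (red) lies below qHF-SC (blue) for the 14 bulge genes and above it for the 14 others, and aHF-SC (grey) is near qHF-SC for genes such as Lgr5, Tbx1 and Lef1.

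The steady genes with the largest falls included several of the extracellular matrix and secreted proteins. A steady gene is called in the same direction, with a difference within 1.5 times, under every alternative processing. The test against a 2-fold change is not among these alternatives. Its arrays also do not overlap between the groups. An alternative left out all probe sets whose names end in _s_at, _x_at or _a_at, here called suffixed probe sets. Genes that an alternative could not measure, such as Cck, Grem1 and Cldn10, are not counted as steady, whatever the size of their difference. There were 609 steady rises and 639 steady falls. After Cd34, the falls were led by Krt24, a type I keratin, at 8094 and 10172 against 30.9 and 30.7 (-8.20 ± 0.25), and Col6a1, a chain of collagen VI, at 2909.8 and 3301 against 12.1 and 16.3 (-7.79 ± 0.24). Col6a1 was at background on 1 of the 2 matrix arrays. Col8a2, S100a4, Angptl7, Ccn2, Pcolce2, Fam171b, Pdzrn4, Ltbp2, Dram1, Serpinb11, Il31ra and Sparc followed, with differences of -7.21 to -5.38. Ccn2, a matricellular growth factor and a target of YAP, read 14484 and 21899 in quiescent, 2916 and 1900.0 in activated and 191 and 195 in matrix cells. Sparc, a collagen-binding matricellular protein, read 5116 and 4612 against 88.3 and 154.

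Regulators of the matrix rose. Of 25 matrix transcription factors, 17 were higher and 2 lower, and the median difference of 2.15 corresponds to a 4.44-fold higher level. Lef1, the nuclear partner of β-catenin that marks the precursors of the hair shaft, read 38.4 and 32.6 in quiescent stem cells and 400.1 and 728 in matrix cells. Its difference was 3.93 ± 0.27 (adjusted p 1.2e-04), and activated cells, at 41.4 and 43.3, stayed beside the quiescent ones. Among homeobox genes, Dlx4 read 23.6 and 21.4 against 438 and 526, Dlx3 177 and 113 against 614 and 1518 and Msx2, a target of BMP signalling in the matrix, 86.9 and 90.3 against 537 and 1120.5. Their arrays did not overlap, which held for 61.2% of all genes. The differences were 4.42 ± 0.19, 2.77 ± 0.48 and 3.13 ± 0.34, the last 1.61 over all probe sets. Ovol1, a zinc finger repressor downstream of Wnt signals, rose by 2.95 ± 0.24, Foxq1 by 2.55 ± 0.17 and Sox21 by 1.67 ± 0.22. Foxn1, the gene mutated in nude mice, read 11.05 and 16.3 against 46.7 and 125 (difference 2.51 ± 0.45, adjusted p 0.006). Cux1 and Mycn rose by 3.79 and 4.35, or 2.36 and 1.79 over all their probe sets. Hoxc13, a homeobox gene that controls hair keratins, missed the threshold at 1.09 ± 0.34 (adjusted p 0.056), with 334 and 254 in quiescent and 423 and 905 in matrix cells. Gata3, a factor of the inner root sheath, read 427 and 343 against 374 and 657 and was not called. The 2 lower members were Dlx5, at 221 and 185 against 59.8 and 74.8, and Vdr, the vitamin D receptor, at 1733 and 1128 against 753 and 613, whose call was lost without qHF-SC replicate 1 or HF-TAC replicate 2.

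Structural genes of the hair layers were among the largest rises. Krt35, an acidic keratin of the hair cortex and cuticle, read 11.96 and 16.2, a mean at background, in quiescent stem cells, 98.6 and 201 in activated cells and 3528 and 8535 in matrix cells. Its difference of 8.62 ± 0.47 (adjusted p 6.3e-05) led the steady rises, and the matrix differed from the activated cells by 5.28 (adjusted p 6.9e-04). Of 24 hair shaft genes, 14 were higher and 0 lower, with a median of 1.15. Krtap8-1, a keratin-associated protein that cross-links hair keratins, read 17.999 and 10.7 against 697 and 1469. Krt31 and Krt33a, later keratins of the cortex, read 29.0 and 31.4 against 160.2 and 552 and 15.7 and 21.6 against 174 and 643. HF-TAC replicate 2 was higher than replicate 1 for all 14 shaft genes called higher.

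The steady rises after Krt35 were Krt25, Krt28, Ccnb2, Krtap8-1, Ube2c, Cdca5, Cdk1, Krt73, Cdc20, Mki67, Shcbp1, Krt27, Melk and Sprr1a, with differences of 7.71 down to 5.03. They are hair and sheath keratins, genes of cell division and a cornified envelope gene.

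Inner root sheath genes rose as well. Of 16 measured, 11 were higher and 1 lower, with a median of 1.71. Krt25, Krt27 and Krt28 are type I keratins of this sheath, and Krt71 and Krt73 are type II. Krt25 read 22.7 and 13.8 in quiescent stem cells and 2615 and 5249 in matrix cells (7.71 ± 0.49), and Krt28 19.2 and 16.5 against 1534 and 3062 (6.93 ± 0.35). Krt71 read 66.8 and 50.1 against 415 and 1302 (3.67 ± 0.49). Tchh, which encodes trichohyalin, the granule protein of this sheath and the medulla, rose by 2.71 ± 0.35. Padi3, which deiminates trichohyalin, read 17.6 and 20.2 against 151 and 273 (3.43 ± 0.27). Ctsl, a lysosomal protease, was the 1 lower member, at -1.51, and its call was lost when suffixed probe sets were left out (-0.06). Keratins of the outer root sheath and companion layer were divided, with 4 of 14 higher and 4 lower. Krt5, the basal type II keratin, fell from 18133 and 17746 to 7527 and 7303 (-1.27 ± 0.16), while Krt75, a companion layer keratin, rose from 90.2 and 99.0 to 356 and 788 (2.49 ± 0.34). Krt14, the basal type I keratin, was not called at -0.39 ± 0.19 (adjusted p 0.19).

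Genes of G2 and mitosis had the highest share of calls among the 51 gene lists. Of 51 genes of G2 and mitosis, 49 were higher and 0 lower in matrix cells. The median difference of 4.14 is a 17.7-fold higher level, against -0.01 over all genes. The list median was 38.3 and 25.9 on the quiescent arrays, 176 and 78.3 on the activated arrays and 544 and 638 on the matrix arrays. Every matrix array thus exceeded every stem cell array in this median, and the activated replicates lay between, apart from each other. Ccnb2, a mitotic cyclin, read 18.03 and 11.9 in quiescent and 919.6 and 1272 in matrix cells (6.20 ± 0.35, adjusted p 7.3e-05). Cdk1, the kinase that drives entry into mitosis, read 45.7 and 40.6 against 1663 and 2056 (5.42 ± 0.30). Ube2c, the ubiquitin-conjugating enzyme of the anaphase-promoting complex, read 68.0 and 65.2 against 3383 and 4459.6 (5.87 ± 0.29), and Cdc20, an activator of that complex, 88.2 and 72.7 against 3189.7 and 3290.4 (5.34 ± 0.32). In all 4 genes the groups lay far apart. Mki67, the source of the Ki-67 antigen, had quiescent values that differed from each other, at 51.99 and 17.5, and matrix values of 1154 and 1274 (5.33 ± 0.65, adjusted p 0.0011). Cdc25b and Foxm1 were the 2 not called. Foxm1, a transcription factor of this gene class, read 79.4 and 80.5 against 97.4 and 123 (adjusted p 0.09), and Cdc25b, a phosphatase that activates Cdk1, 379 and 439 against 286 and 318 (adjusted p 0.19).

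Promoters of 4 of the largest steady rises among these genes are shown with that of 1 replication gene, Mcm5. The windows run from 250 bases before to 20 after the start site, are from RefSeq on GRCm38.p6, and read 5′ to 3′ along the gene. Capitals mark, in all 5 and on either strand, the CHR element (TTTGAA or TTTAAA), the CCAAT box and the E2F site (TTTCCCGC, TTTGGCGC, TTTCGCGC or TTTGCCGC).
Ccnb2 (chr9:70421535-70421804, minus strand): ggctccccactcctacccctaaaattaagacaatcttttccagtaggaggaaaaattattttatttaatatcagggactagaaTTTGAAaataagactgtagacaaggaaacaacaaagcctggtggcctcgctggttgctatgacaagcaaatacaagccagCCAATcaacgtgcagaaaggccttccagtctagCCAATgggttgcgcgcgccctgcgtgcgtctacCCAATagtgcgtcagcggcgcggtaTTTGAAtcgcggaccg
Cdc20 (chr4:118437324-118437593, minus strand): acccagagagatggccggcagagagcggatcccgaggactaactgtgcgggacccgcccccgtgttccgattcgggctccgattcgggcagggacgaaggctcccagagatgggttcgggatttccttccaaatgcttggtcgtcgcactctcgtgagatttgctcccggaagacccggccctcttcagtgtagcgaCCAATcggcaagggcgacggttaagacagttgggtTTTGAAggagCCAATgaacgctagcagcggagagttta
Cdk1 (chr10:69352893-69353162, minus strand): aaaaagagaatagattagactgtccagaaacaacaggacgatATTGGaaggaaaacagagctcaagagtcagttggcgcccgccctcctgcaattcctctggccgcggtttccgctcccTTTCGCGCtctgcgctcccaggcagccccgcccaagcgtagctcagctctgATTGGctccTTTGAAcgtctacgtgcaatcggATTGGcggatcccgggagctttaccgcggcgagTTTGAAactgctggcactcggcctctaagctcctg
Ube2c (chr2:164769679-164769948, plus strand): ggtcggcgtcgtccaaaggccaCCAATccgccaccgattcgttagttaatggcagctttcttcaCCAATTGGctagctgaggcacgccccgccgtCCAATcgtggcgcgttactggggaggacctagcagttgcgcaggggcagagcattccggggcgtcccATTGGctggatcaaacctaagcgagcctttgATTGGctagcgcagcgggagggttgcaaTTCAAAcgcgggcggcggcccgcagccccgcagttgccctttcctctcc
Mcm5 (chr8:75109259-75109528, plus strand): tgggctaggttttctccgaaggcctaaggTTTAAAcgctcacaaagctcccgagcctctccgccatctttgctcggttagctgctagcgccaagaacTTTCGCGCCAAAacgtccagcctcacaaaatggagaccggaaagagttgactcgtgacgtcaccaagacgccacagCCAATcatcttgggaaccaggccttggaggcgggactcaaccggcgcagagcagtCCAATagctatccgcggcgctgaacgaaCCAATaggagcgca
In Cdc20 the CHR element begins 18 bases before the start, between CCAAT boxes that begin 53 and 8 bases before it. In Ccnb2 CCAAT boxes begin 87, 54 and 21 bases before the start. Cdk1 also holds an E2F match, which begins 131 bases before the start, and Mcm5 a CHR match, which begins 221 bases before it. Mcm5 is not typical of the replication genes with the largest steady rises. Of the others, Mcm3 also holds E2F matches, and Mcm2, Rrm1, Rrm2 and Tk1 hold none. Motifs were counted on both strands of the 300 bases from 250 before to 50 after the start, in genes with 1 such promoter. A CHR element was present in 30 of 40 G2 and mitosis promoters (75%), against 21.6% of the 11791 promoters of genes on the arrays. The CCAAT box was present in 75% against 38.6%, and both motifs together in 65% against 8.6%. Among 32 G1/S promoters the CHR element was present in 21.9%, the CCAAT box in 59.4% and both in 15.6%. Matches of different motifs that overlap were each counted. E2F sites were present in 11 of 32 G1/S promoters (34.4%), in 7.5% of the G2 and mitosis promoters and in 3.47% of promoters of genes on the arrays. A match describes letters in a window and not a bound site.

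**Figure D3:**
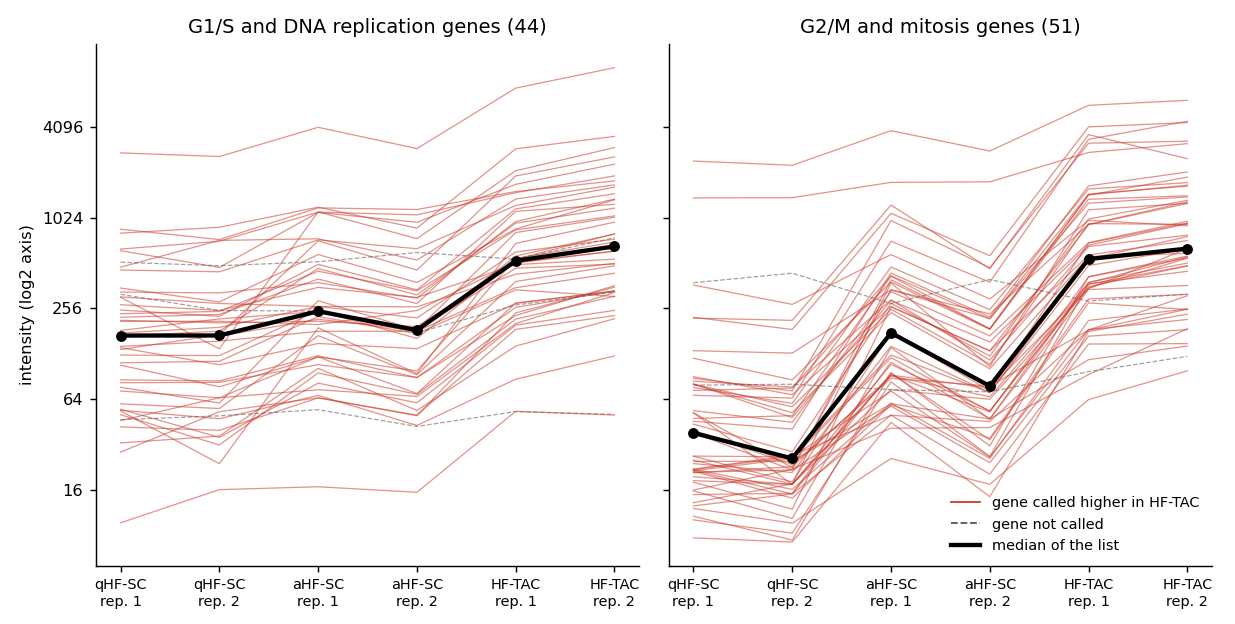
Intensity (log2 axis) of each gene of the G1/S and replication list (left) and of the G2 and mitosis list (right) on the 6 arrays, 1 line a gene, red where called higher in HF-TAC and dashed grey where not called, with the list median in black. The right-hand median rises from 25.9 to 38.3 on the qHF-SC arrays to 544 and 638 on the HF-TAC arrays, and only a few dashed lines stay flat.

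Genes of DNA replication rose by smaller steps. Of 44 G1/S genes, 41 were higher and 0 lower, with a median of 1.81, a 3.50-fold higher level. Mcm5, a subunit of the replicative helicase, read 137 and 171 in quiescent stem cells and 1935 and 2587 in matrix cells (3.87 ± 0.26), and Mcm2, another subunit, 168 and 181 against 941 and 1183 (2.60 ± 0.23). Rrm2, the regulated subunit of ribonucleotide reductase, read 303 and 138 against 2095 and 2984 (3.61 ± 0.39). Tk1, the thymidine kinase of S phase, read 76.8 and 60.5 against 815 and 1029 (3.75 ± 0.25). Rfc1, Orc1 and Pole2 were the 3 not called, at 0.09, 0.10 and 0.34.

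Regulators upstream of S phase were called in part. Among 13 G1 cyclins and kinases, 8 were higher and 2 lower. Ccnd2 rose from 1281 and 1067 to 3503 and 5505 (1.91 ± 0.29) and Ccne2 from 25.6 and 24.5 to 118 and 172 (2.51 ± 0.29). Ccnd1 was not called, at 688 and 765 against 829.8 and 1232 (adjusted p 0.29), and Ccnd3, the third D-type cyclin, fell from 417 and 451 to 139.7 and 144 (-1.61 ± 0.20, or -0.68 over all its probe sets). The other lower member, Ccng1, lost its call without qHF-SC replicate 2 and with other choices of probe set. Of 10 E2F and DP factors, 5 rose, with E2f2 at 3.16 ± 0.32 and E2f7, a repressor of the family, at 2.97 ± 0.35, while E2f1 was not called at 0.32 ± 0.16. Of 11 CDK inhibitors and pocket proteins, 6 were higher. Cdkn1a, which encodes p21, read 392 and 368 against 1984 and 1516 (2.19 ± 0.22), Cdkn2c, which encodes p18, 160.2 and 176 against 669.5 and 796 (2.12 ± 0.19) and Cdkn2b, which encodes p15, 64.4 and 45.7 against 203 and 261 (2.08 ± 0.22). Cdkn1c, which encodes p57, fell from 109 and 145 to 38.6 and 47.1 (-1.56 ± 0.19), and Rbl2 fell by 0.69 with a call that was lost without qHF-SC replicate 1 or HF-TAC replicate 2. Cdkn1b, which encodes p27, was not called at -0.20 ± 0.21 (adjusted p 0.58).

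Most genes of DNA repair rose. Of 36 measured, 22 were higher and 2 lower, with a median of 0.98. H2ax, the histone variant phosphorylated at breaks, read 236 and 217 against 1650.4 and 2333 (3.12 ± 0.20). The 2 lower genes recognise damage in nucleotide excision repair: Xpc fell from 306 and 289 to 90.2 and 114 (-1.55 ± 0.18) and Ddb2 by 1.61.

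Genes of attachment to the basement membrane were lower or not called. Of 31 integrin, laminin and hemidesmosome genes, 0 were higher and 17 lower, with a median of -1.13. Npnt, which encodes nephronectin, an integrin ligand of the bulge basement membrane, read 1626 and 1169.9 against 208 and 135 (-3.04 ± 0.26). Dst, which encodes the hemidesmosomal plakin BPAG1, read 8071 and 8053 against 872 and 509 (-3.60 ± 0.26), and Itgb4, the β4 partner of integrin α6, 1410.1 and 1354 against 259.7 and 199 (-2.60 ± 0.30). Lamb3, a chain of the laminin of hemidesmosomes, fell from 3234 and 3985 to 326 and 203 (-3.80 ± 0.29), and Col7a1, the collagen of anchoring fibrils, from 569 and 569 to 66.8 and 42.5 (-3.42 ± 0.32). None of these groups of arrays overlapped, which held for 61.2% of all genes. The fall of Itgb1, at -1.03 ± 0.22, lost its call without qHF-SC replicate 1 or HF-TAC replicate 1. Activated cells were not lower as a group, with a list median of 0.07 against quiescent cells, and 21 of the 31 genes were lower in matrix than in activated cells.

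Cell-cell junction genes were mixed, with 9 of 28 higher (32.1%) and 3 lower (10.7%), against 13.4% and 12.9% of all genes. The count of higher genes was 4 without qHF-SC replicate 2 and 5 without HF-TAC replicate 2. The tight junction genes Cldn4 and Ocln read 61.7 and 72.7 against 711 and 624 (3.31 ± 0.16) and 95.9 and 95.8 against 528 and 375 (2.21 ± 0.21). Cldn10, another claudin, read 18.3 and 36.1 against 1262 and 1944 (5.93 ± 0.34). The gap junction gene Gjb2 had quiescent values of 435 and 16.2, far apart from each other, and a difference of 5.22 ± 1.32. Its call was lost without HF-TAC replicate 2, with an offset of 16 before the log and with an intensity trend in the variance model.

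Signalling genes went in both directions within each pathway, as did all genes, of which 13.4% were called higher and 12.9% lower. Among ligands, Shh, the Hedgehog ligand of the matrix, read 26.4 and 18.1 in quiescent, 23.01 and 39.8 in activated and 735 and 906 in matrix cells. Its difference was 5.22 ± 0.30 (adjusted p 7.3e-05), or 2.84 over all its probe sets, and the matrix exceeded the activated cells by 4.75 (adjusted p 2.6e-04). Wnt5a, a ligand of noncanonical Wnt signalling, read 15.9 and 7.80 against 395 and 633 (5.49 ± 0.36, or 3.14 over all its probe sets), and Wnt11 59.3 and 69.3 against 162 and 147 (1.27 ± 0.16). Bmp4 read 23.5 and 31.8 against 139.8 and 342 (2.999 ± 0.38), with activated cells at 20.1 and 20.1. Bmp2 had a difference of -0.96 ± 0.26, a call that was lost without qHF-SC replicate 1, qHF-SC replicate 2 or HF-TAC replicate 1. Fgf18, a growth factor of the resting bulge, fell from 234 and 215 to 11.8 and 16.6 (-4.01 ± 0.27), and Fgf1 from 176 and 202 to 12.9 and 16.3 (-3.70 ± 0.19).

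The Hedgehog coreceptors Gas1, Boc and Cdon fell: Gas1 read 10917 and 9954 against 1358 and 1519 (-2.86 ± 0.21), Boc 579.8 and 721 against 143 and 140.0 (-2.19 ± 0.22), and Cdon fell by 3.61, or by 1.94 over all its probe sets. Ptch1, the receptor that is itself a target of the pathway, rose by 1.38 ± 0.35, but not without either qHF-SC array, and Gli1, another target, was not called at 107 and 103 against 93.4 and 191 (adjusted p 0.50). In all 2 of 15 Hedgehog genes were higher (13.3%) and 5 lower (33.3%). Fzd2, a Wnt receptor, fell from 2493 and 2067 to 227 and 320.3 (-3.07 ± 0.27), and Axin2, a target of β-catenin, was not called at 167 and 193 against 179 and 215 (adjusted p 0.74). Matrix cells exceeded activated cells in Axin2, whose activated values were 79.7 and 55.9, by 1.56 (adjusted p 0.0032). Of 52 Wnt genes, 8 were higher and 9 lower, which is 15.4% and 17.3%, against 13.4% and 12.9% of all genes.

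In the BMP and TGF-beta list, 4 of 38 genes were higher and 13 lower, the latter 7 without qHF-SC replicate 1. Bambi, a decoy receptor, rose from 196 and 231 to 842 and 1116 (2.19 ± 0.21), and Ltbp3, which holds latent TGF-beta in the extracellular matrix, fell from 3076 and 2626 to 994 and 945 (-1.55 ± 0.15). The BMP targets Id1 and Id3 were not called, at -0.86 ± 0.27 and -0.52 ± 0.27. Among FGF, EGF and IGF genes, 8 of 37 were higher and 15 lower, the higher ones 4 without qHF-SC replicate 2. Fgfr1 fell from 1338 and 1317 to 109 and 145 (-3.40 ± 0.23). Igfbp3 and Igfbp6, which bind insulin-like growth factors, read 4406 and 4989 against 133 and 193 (-4.87 ± 0.22) and 1017 and 1168 against 40.3 and 22.2 (-5.19 ± 0.33). In the Notch list, 4 of 21 were higher and 4 lower (19.0% each), against 13.4% and 12.9% of all genes. The targets Hes1 and Nrarp rose from 214 and 125 to 435 and 616 (1.66 ± 0.28) and from 293 and 179 to 774 and 1236 (2.09 ± 0.29), while Lfng, a glycosyltransferase that tunes Notch receptors, fell from 306 and 277 to 80.5 and 131 (-1.50 ± 0.25). Without qHF-SC replicate 1, qHF-SC replicate 2 or HF-TAC replicate 1, the lower Notch genes were 2. Of 37 ephrin, Eph receptor and guidance genes, 8 were higher and 11 lower. Sema3e, a repulsive semaphorin, fell from 1367 and 1367 to 79.0 and 76.3 (-4.14 ± 0.35). Unc5b, a netrin receptor, rose from 93.4 and 109.9 to 219 and 334 (1.42 ± 0.25).

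Chromatin genes were called in both directions, as were all genes, of which 13.4% were higher and 12.9% lower. The shares in the lists below ran from 23.7% to 46.7% higher and from 7.89% to 18.5% lower. Of 15 DNA methylation genes, 7 were higher (4 when suffixed probe sets were left out) and 2 lower, fewer without any single array. Of 39 remodellers and histone deacetylases, 10 were higher and 6 lower, the latter 3 without qHF-SC replicate 1. Of 27 Polycomb genes, 7 were higher and 5 lower, the former 4 without qHF-SC replicate 2 or HF-TAC replicate 2. Ezh2, the methyltransferase of Polycomb repressive complex 2, read 195 and 134 in quiescent, 233 and 147 in activated and 589.6 and 783 in matrix cells (2.07 ± 0.29, adjusted p 0.0019). Its partners Eed and Suz12 were not called, at 0.50 ± 0.20 and 0.56 ± 0.28, nor was Bmi1, a subunit of complex 1, at -0.02 ± 0.22. Phf1, an accessory subunit of complex 2, fell from 191 and 276 to 50.5 and 42.7 (-2.31 ± 0.23). Ezh1, the paralogue of Ezh2, read 486 and 498 against 184 and 188 (-1.40 ± 0.19). The difference was only -0.30 and uncalled when suffixed probe sets were left out. Uhrf1, which brings the maintenance methyltransferase to replicated DNA, rose from 129 and 112 to 1694 and 2541 (4.11 ± 0.26), and Dnmt1, that methyltransferase, from 365 and 345 to 1028 and 1544 (1.83 ± 0.21). The fall of Dnmt3a, a de novo methyltransferase, was -0.94 ± 0.26 and was lost without any 1 array other than qHF-SC replicate 2. Hmgb2, a chromatin protein of dividing cells, rose from 717 and 535 to 4802 and 5785 (3.09 ± 0.29). Smarca2, 1 of the alternative ATPases of the BAF remodelling complex, fell from 1043 and 1042 to 152 and 139 (-2.84 ± 0.20), while its alternative Smarca4 rose from 379 and 332 to 678 and 957 (1.18 ± 0.22). Among histone methyltransferases and demethylases, 9 of 38 were higher and 3 lower, the former 5 without HF-TAC replicate 2 and the latter 1 without any other single array. Kmt2e fell from 1515 and 1245 to 431 and 499 (-1.57 ± 0.17, or -1.01 over all its probe sets).

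Genes of biosynthesis rose in large numbers and by small steps. Of 45 ribosome biogenesis genes, 39 were higher and 0 lower, with a median of 1.04. The number of higher genes was 23 with qHF-SC replicate 1 left out, and 24 with either qHF-SC replicate 2 or HF-TAC replicate 2 left out. Nhp2, a protein of the ribonucleoproteins that pseudouridylate ribosomal RNA, read 946 and 1085 against 3605 and 3878 (1.88 ± 0.15), and Nop56, of those that methylate it, 530.1 and 471 against 1469 and 1963 (1.77 ± 0.19). Of 33 translation factors and tRNA synthetases, 22 were higher (13 without qHF-SC replicate 2 and 14 without HF-TAC replicate 2). Gars, the glycyl-tRNA synthetase, rose from 317 and 259 to 966 and 1268 (1.95 ± 0.19), and Eif4a1, the helicase of initiation, from 3592 and 3368 to 7779 and 9496 (1.31 ± 0.17). Its paralogue Eif4a2 was the 1 lower member, from 2036 and 2693 to 639.5 and 754 (-1.75 ± 0.20). Of 44 splicing genes, 31 were higher and 3 lower, the former 16 to 18 without qHF-SC replicate 1, qHF-SC replicate 2 or HF-TAC replicate 2. Of 41 proteasome and chaperone genes, 31 were higher and 0 lower, and the higher ones numbered 17 when qHF-SC replicate 1 or HF-TAC replicate 2 was left out and 13 when qHF-SC replicate 2 was. Hspd1, the mitochondrial chaperonin, rose from 724 and 635 to 1910.2 and 3035 (1.83 ± 0.24).

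The Myc family differed by member. Myc itself was not called, at 619.8 and 500.0 in quiescent and 893 and 468 in matrix cells (0.22 ± 0.29, adjusted p 0.68). Mycn read 43.0 and 36.5 against 614 and 1068 and Mycl 43.8 and 59.0 against 911 and 1610.2, differences of 4.35 ± 0.33 and 4.57 ± 0.30, or 1.79 and 2.91 over all probe sets. In both the matrix exceeded activated cells, by 4.28 and 4.07 (adjusted p 4.8e-04 and 4.1e-04). Mxd4, a Max partner that opposes Myc, fell by 2.13 (by 1.16 over all its probe sets), while Mxd3, of the same family, rose by 1.84 ± 0.19. Sat1, which acetylates polyamines, rose from 829 and 632 to 5387 and 5741 (2.94 ± 0.18).

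Metabolic genes differed by pathway, and of all genes 13.4% were called higher and 12.9% lower. Mitochondrial ribosomal proteins had 30 of 41 higher and 0 lower, the former 16 without qHF-SC replicate 1, qHF-SC replicate 2 or HF-TAC replicate 2. Respiratory chain subunits had 21 of 45 higher and 0 lower, with a median of only 0.42. That number was 10 without qHF-SC replicate 1, 9 without qHF-SC replicate 2 and 12 without HF-TAC replicate 1. Ndufs8, a subunit of complex I, read 1957 and 1916 against 4953 and 4798 (1.33 ± 0.14), and Cox5a, of complex IV, 3579 and 3378 against 7826 and 8445 (1.23 ± 0.15). Glycolysis genes had 2 of 24 higher and 7 lower, 1 and 4 without either qHF-SC array. Pfkm, a phosphofructokinase, fell from 331 and 280.3 to 129 and 128 (-1.24 ± 0.16), Pgk1, phosphoglycerate kinase, rose from 1283 and 1073 to 2716 and 2270.2 (1.08 ± 0.18), and Ldha, lactate dehydrogenase, was not called at -0.18 ± 0.16. Of 20 cholesterol synthesis genes, 15 were higher and 0 lower, with a median of 1.20. Sqle, squalene epoxidase, read 147 and 145 against 687 and 1075 (2.56 ± 0.25) and Cyp51, lanosterol demethylase, 71.8 and 93.4 against 379 and 428 (2.30 ± 0.22). Of 28 genes of serine, one-carbon and amino acid supply, 17 were higher and 2 lower, the latter 1 without qHF-SC replicate 1 or HF-TAC replicate 1. Mthfd2, a mitochondrial folate enzyme, rose from 57.0 and 62.8 to 219.8 and 358 (2.23 ± 0.24), and Slc7a5, a carrier of large neutral amino acids, from 175 and 227 to 613 and 1015 (1.99 ± 0.26), while Slc38a2, a carrier of small neutral amino acids, fell from 4648 and 3191 to 950.1 and 1252 (-1.82 ± 0.23). Lysosome and autophagy genes had 4 of 36 higher and 11 lower, 2 and 7 without qHF-SC replicate 2. Hexa, a lysosomal hexosaminidase, fell from 859.8 and 1141 to 158 and 200.4 (-2.48 ± 0.20). Among apoptosis regulators, 5 of 26 were higher and 9 lower, the latter 5 without qHF-SC replicate 1. Pmaip1, which encodes the pro-apoptotic protein Noxa, rose from 10.6 and 10.2, at background, to 173 and 224 (4.24 ± 0.23), and the anti-apoptotic Bcl2 fell from 318 and 288 to 131 and 155 (-1.09 ± 0.16).

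**Figure D4:**
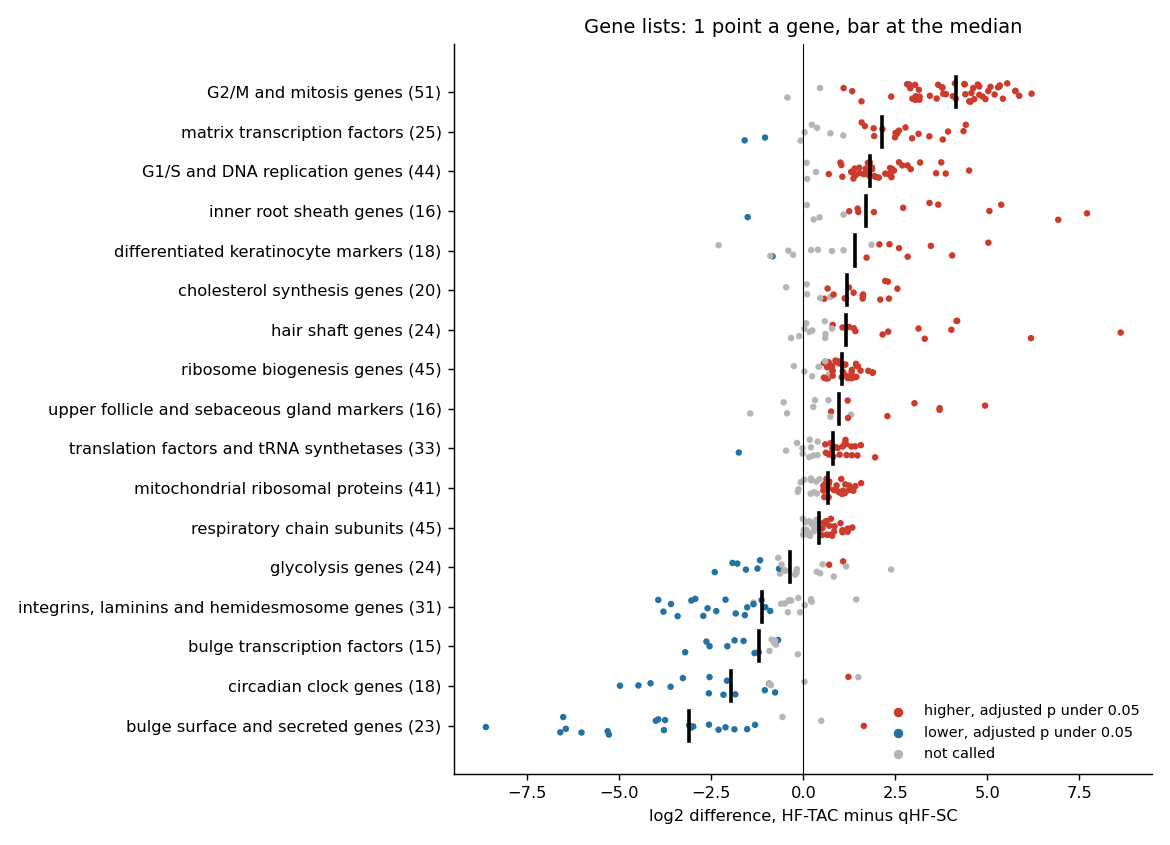
Log2 difference of HF-TAC minus qHF-SC for each gene of 17 lists, 1 point a gene, red where called higher, blue where called lower and grey where not called, with a bar at the list median and the number of genes in brackets. The median ran from -3.10 for bulge surface and secreted genes to 4.14 for G2 and mitosis genes.

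Circadian clock genes were lower. Of 18 measured, 1 was higher and 13 lower, with a median of -1.96. In activated cells, 1 was higher and 10 lower than in quiescent cells. The list median was -1.21 for activated minus quiescent cells and -0.23 for matrix minus activated cells. Dbp, an output factor of the clock, read 1992 and 2578 in quiescent, 84.5 and 61.1 in activated and 73.5 and 69.9 in matrix cells. Per1, a repressor of the clock, read 603 and 816, 174 and 219 and 213 and 114 in the same order. Activated and matrix cells, of the same age, lay close together in Dbp and Per1, and neither gene passed the test between them (-0.00 and -0.33, adjusted p 0.99 and 0.59). The differences from quiescent cells were -4.98 ± 0.21 and -2.17 ± 0.31. Arntl, the activator BMAL1, was the 1 higher gene, at 1.23 ± 0.22, and lost its call when suffixed probe sets were left out. Clock, its partner, fell from 199 and 170.4 to 94.3 and 84.2 (-1.05 ± 0.16). Against activated cells, 4 of the list were lower and 1 higher in the matrix, the lower ones including Cry2, a cryptochrome repressor, at -0.99 (adjusted p 0.009), and Clock, at -0.72 (adjusted p 0.02).

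Immediate early and stress genes, which respond to tissue digestion among other stimuli, were called higher in part in both groups taken at day 28 to 30. Against quiescent cells, 15 of 30 were higher and 0 lower in activated cells, and 15 of 30 were higher and 2 lower in the matrix, with 7 higher without qHF-SC replicate 2 and 9 without HF-TAC replicate 1. The median was 0.88, and that of activated minus quiescent cells was 1.17. Atf3, a stress factor, read 767 and 767 in quiescent, 6248 and 9139 in activated and 5460.2 and 3084 in matrix cells (2.42 ± 0.30 for matrix minus quiescent). Against activated cells, 0 of the list were higher and 3 lower in the matrix. Fos, at 11089 and 7319 against 15177 and 15737, lost its call without qHF-SC replicate 2 or either HF-TAC array. The part of this response in the other differences was not tested.

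Genes of upper follicle and differentiated epidermis were also high in the matrix sort. Of 16 upper follicle and sebaceous gland markers, 8 were higher (4 when suffixed probe sets were left out) and 0 lower. Their summed intensity was 14964 and 16870.0 on the quiescent, 18897 and 18244 on the activated and 82172 and 51700.5 on the matrix arrays. Krt79, a keratin of the infundibulum and sebaceous duct, read 257 and 307 against 11194 and 6644 (4.94 ± 0.32, adjusted p 9.8e-05). Defb6, a β-defensin, read 941 and 1613 against 22654 and 11345 (3.70 ± 0.52), and Cst6, a cystatin of cornifying epithelium, 1458 and 1910.5 against 27919 and 16969.9 (3.70 ± 0.33). Gata6, a factor of the upper follicle and sebaceous duct, read 40.0 and 49.0 against 553 and 233 (3.02 ± 0.36, or 1.58 over all its probe sets). Of 18 differentiated keratinocyte markers, 8 were higher and 1 lower, the latter 4 without HF-TAC replicate 1, and their sums were 37928 and 35851 on the quiescent and 73679 and 41918 on the matrix arrays. Klk7, a protease of the cornified layer, read 458 and 345 against 9567 and 4505 (4.05 ± 0.37), Sprr1a, a cornified envelope protein, 484 and 104 against 10256 and 5246 (5.03 ± 0.65), and Ivl, involucrin, 115 and 123 against 771 and 679.7 (2.60 ± 0.15). The epidermal keratins Krt1 and Krt10 were not called, at 1093 and 837 against 1161 and 449 and 7666 and 6478 against 9769 and 6835, and Lor, loricrin, read 1911 and 1809.5 against 850.2 and 167 (adjusted p 0.055). Ovol1, Grhl1 and Grhl3 are expressed in differentiating epidermis as well as in hair.

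The 2 matrix arrays differed from each other by gene group. Replicate 1 was the higher one for 7 of the 8 upper follicle genes called higher and for 7 of the 8 differentiation genes. Replicate 2 was the higher one for 14 of 14 hair shaft genes, 9 of 11 inner root sheath genes and 14 of 17 matrix transcription factors. Over all genes, 818 were over 1.5-fold higher in replicate 1 and 991 in replicate 2. The median log2 ratio of replicate 2 over replicate 1 was -0.70 for the upper follicle list, -0.81 for the differentiation list, 0.62 for the hair shaft list and 0.02 for all genes. The summed intensity of the hair shaft list was 8460.3 and 18039 on matrix replicates 1 and 2, and that of the upper follicle list 82172 and 51700.5. The part of the upper follicle and differentiation genes in the matrix results was not tested. MHC class I and interferon genes followed replicate 1 too, with a median log2 ratio of -0.88. Of 20 such genes, 1 was called higher and 0 lower against quiescent cells. Without HF-TAC replicate 2 they were 8 higher, and without HF-TAC replicate 1 they were 3 lower.

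**Figure D5:**
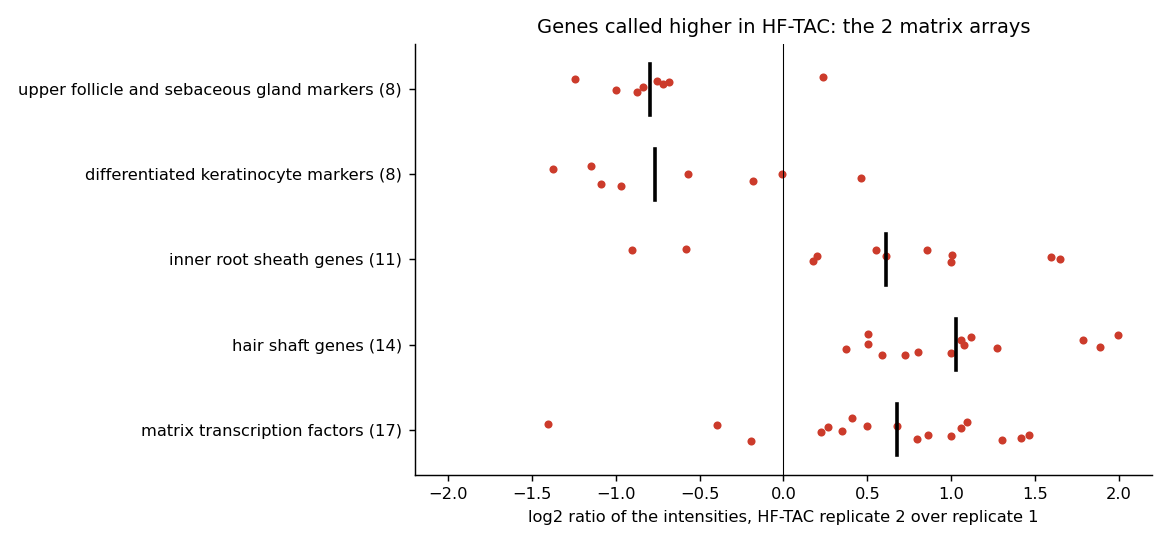
Log2 ratio of the intensity on HF-TAC replicate 2 over that on replicate 1, 1 point for each gene called higher in HF-TAC, in 5 lists, with a bar at the median of the points. Most upper follicle and differentiation genes lie left of 0, where replicate 1 is higher, and all 14 hair shaft genes lie right of it.

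Markers of non-epithelial cells were mostly at low intensity in both sorts. Of all genes, 13.4% were called higher and 12.9% lower. The shares called lower among endothelial (14.3%) and immune (12.5%) markers lay near the latter. Of 14 endothelial markers, 0 were higher and 2 lower, and the list summed to 541 and 488 on the quiescent and 383 and 439 on the matrix arrays. Both falls, of Cdh5 and Ramp2, lost their call without qHF-SC replicate 1. The call of Cdh5 was also lost without any other single array and in the fit of 4 arrays. An offset of 16 before the log, or the replicate number as a block, lost it too. Of 16 immune markers, 0 were higher and 2 lower, with sums of 599 and 696 against 673 and 552, and Cd68, a macrophage gene, fell from 58.4 and 63.5 to 17.4 and 24.2 (-1.57 ± 0.25). The other, Cd3g, lost its call without qHF-SC replicate 1 or HF-TAC replicate 2. Erythroid and platelet markers had 0 of 8 called in either direction, with sums of 215 and 214 against 259 and 226 and 4 of them at background in both groups. Nerve markers had 0 of 12 higher and 1 lower, the latter Pmp22, with 5 at background in both groups. Of 14 muscle markers, 3 were higher (1 without qHF-SC replicate 2 or HF-TAC replicate 2) and 1 lower, summing to 658 and 749 against 765 and 966, and to 5806 and 3178 in activated cells. Acta2, smooth muscle actin, read 59.0 and 29.4 in quiescent, 2892 and 1428 in activated and 149 and 252 in matrix cells. Its rise over quiescent cells was lost without qHF-SC replicate 2 or HF-TAC replicate 2, and was -0.0032 when suffixed probe sets were left out.

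Fibroblast, dermal papilla and melanocyte lists held single genes with large differences. Of 15 fibroblast markers, 2 were higher (13.3%) and 4 lower (26.7%), against 13.4% and 12.9% of all genes. The call of Fn1, 1 of the higher ones, was lost without either qHF-SC array or HF-TAC replicate 2. The largest falls were those of the collagen VI genes, Col6a1 at -7.79 ± 0.24 as given above and Col6a2, which read 1935 and 2672 against 63.5 and 47.2 (-5.38 ± 0.25). In the other direction, Dcn, the proteoglycan decorin, read 28.8 and 16.6 in quiescent, 53.2 and 86.8 in activated and 3646 and 5927 in matrix cells (7.73 ± 0.36, adjusted p 4.1e-05, or 3.89 over both its probe sets). The collagen gene Col1a1, which fibroblasts express at high levels, read 39.0 and 53.3 against 36.7 and 46.2 and was not called (adjusted p 0.69). Col1a2 had a difference of -1.73, a call lost without either qHF-SC array, with other choices of probe set and with an offset of 16. Of 16 dermal papilla markers, 3 were higher and 3 lower (18.75% each), and 6 were at background in both groups. The higher ones included Bmp4 and Wif1 and the lower ones Igfbp3, at -4.87 ± 0.22. The summed intensity of the list was 4833 and 5447 on the quiescent and 994 and 1234 on the matrix arrays. Igfbp3, whose values are given above, made up most of the quiescent sums and little of the matrix ones. The fall of the sum thus follows that gene and does not describe the list. Of 14 melanocyte markers, 5 were higher (35.7%) and 1 lower (7.14%). Kit, the receptor of melanocyte precursors, read 18.7 and 12.7 against 105 and 265 (3.44 ± 0.41, or 1.86 over all its probe sets), and Dct, a pigment enzyme, 119.8 and 72.3 against 316 and 373 (1.89 ± 0.26). Pmel and Tyrp1, proteins of the melanosome, were not called, at 38.5 and 35.4 against 33.1 and 56.0 and 18.5 and 21.3 against 21.2 and 88.0. Mitf, the master regulator of melanocytes, fell from 1581 and 1801 to 93.6 and 78.3 (-4.30 ± 0.16), and activated cells read 175 and 175. The part of melanocytes or dermal cells in these differences was not tested. The higher melanocyte genes were 2 or 3 without qHF-SC replicate 1, qHF-SC replicate 2 or HF-TAC replicate 2.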

How the data were processed

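Per the labels, RNA was isolated with Trizol, and 2 µg gave the biotinylated cRNA of an array. The deposited table holds linear intensities of 45101 probe sets. The submitters' processing notes name RMA, with no version or role, and which array software and chip definition were used is not given in the sources used here. RMA compresses large fold changes and usually assumes that arrays share 1 distribution. Array medians lay between 22.8 and 23.9.

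Left out were 64 control probe sets, 932 with several gene symbols in the platform annotation and 9160 with none. The 34945 with 1 symbol gave 18193 genes, of which 9010 have 2 or more probe sets. Log2 values of all 6 arrays were fitted in a model of group means with limma 3.58.1 (R 4.3.3), with 3 residual and 4.25 prior degrees of freedom, and the script was tested on simulated data. With 2 arrays a group, their number limits the precision. The members, the 51 gene lists and the rule for named genes were chosen with earlier results of these data known. The rule names the 15 largest steady rises and falls, up to 6 steady members of each list (the 2 with the smallest p where fewer than 2 are steady) and set regulators. Genes named outside it were chosen after their values were seen. Taken as deviations from their group means, same-numbered arrays of different groups correlated at 0.06, -0.13 and 0.08. With 2 arrays a group this cannot tell whether same-numbered arrays share animals, and the main fit did not pair them. Alternatives changed the probe set choice, normalization, offset, filter, variance model, block and arrays included.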

Additional observations from a re-analysis of the deposited data

How the results depend on the processing

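Tested against a 2-fold change, 440 genes were higher and 490 lower. Leaving out each array in turn gave 1361 to 2308 higher and 1532 to 2280 lower genes, the lowest without qHF-SC replicate 2. The other normalizations, probe set choices, variance models, filter, offset and the fit of 4 arrays gave 2056 to 2508 and 2024 to 2459. The replicate number as a block gave 2304 higher and 2226 lower genes, and whether the numbers pair the arrays is not known. Without probe sets named _s_at, _x_at or _a_at, the difference of Acta2 was -0.0032 (adjusted p 0.994). Among named genes called in the main fit or in the alternative, Acta2 was the only 1 whose sign turned. Sign changes of genes called in neither fit were not counted. Averaging all probe sets of a gene lost the call of 4 named genes, and leaving out qHF-SC replicate 1 that of 15. Of 309 named genes, 270 were called, and 246 of those kept their call under every alternative other than the 2-fold test. Array data give no counts, so low intensities were not read as absence. In genes at background in 1 group, a difference understates the change.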

Other observations

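Redox genes were called in both directions, at 27.6% higher and 20.7% lower against 13.4% and 12.9% of all genes. Of 29 glutathione and thioredoxin genes, 8 were higher and 6 lower in matrix than in quiescent stem cells, 4 higher without qHF-SC replicate 2, and 5 higher and 10 lower without HF-TAC replicate 1. Txn1, the cytosolic thioredoxin, read 13575 and 14298 on the quiescent arrays and 6301 and 6395 on the matrix arrays (-1.13 ± 0.15, adjusted p 0.0014). Txnrd1, the reductase that recycles it, read 70.7 and 25.2 against 527 and 823 (3.96 ± 0.45, or 1.71 over all its probe sets). The arrays of the groups overlapped in neither gene, nor in 61.2% of all genes. Selenbp1, a selenium-binding protein, rose from 455 and 572 to 1912 and 3334 (2.31 ± 0.31), and activated cells read 157 and 237, below both groups. Prdx4, a peroxiredoxin of the endoplasmic reticulum, rose from 405 and 445 to 1080.0 and 990.0 (1.28 ± 0.19), and Gstt1, a glutathione transferase, fell from 161 and 144 to 27.6 and 23.99 (-2.56 ± 0.27).

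Single regulators of alternative splicing were called in both directions. Esrp2, an epithelial splicing regulator, rose from 315 and 254 to 864 and 943 (1.68 ± 0.19), and Srsf1, a general splicing activator, from 1856 and 1773 to 4327 and 7505 (1.65 ± 0.25). The muscleblind genes Mbnl1 and Mbnl2 were lower, at 4659.8 and 4174 against 1385 and 1701 (-1.52 ± 0.19, or -0.79 over all probe sets) and 2157 and 1881 against 895 and 1003 (-1.09 ± 0.23). The call of Mbnl2 was lost without qHF-SC replicate 1. Among EGF receptor ligands, Hbegf rose from 125 and 40.6 to 588 and 397 (2.76 ± 0.48), and Epgn read 80.6 and 47.8 against 558 and 155, a call lost without qHF-SC replicate 2. The receptor Egfr read 1494 and 1112 against 481 and 684 (-1.17 ± 0.23), and its call was lost without qHF-SC replicate 1 or when all its probe sets were averaged (-0.27).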
